A study of Canis lupus familiaris with 15 samples.

Results

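The splenic masses of 10 dogs were compared, 5 diagnosed as hemangiosarcoma and 5 as nodular hyperplasia, out of 15 spleens whose small RNA was sequenced. They were taken as the samples whose disease state reads Hemangiosarcoma or Nodular Hyperplasia in the labels, and every miRNA with enough reads was tested between both groups. Both groups came from client-owned dogs (Canis lupus familiaris) whose spleen was removed because of a mass, and age, sex and breed did not enter the comparison. An adjoining piece of each mass was read by a pathologist, and the diagnosis of hemangiosarcoma rested on histology with staining for the endothelial protein CD31. The 5 normal spleens of the series, from an archive of frozen tissue, entered the fit to estimate the spread and are given here as a further reference. Each library was made from 1 piece of frozen tissue of 1 dog, so it holds tumor or nodule together with vessels, blood cells and any spleen beside them. A lower level of a miRNA of 1 cell type in such bulk tissue can come from fewer of those cells or from less of the miRNA in each cell, and these cannot be told apart.

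Hemangiosarcoma is a malignant tumor of cells that line blood vessels, whereas nodular hyperplasia is a benign overgrowth of the cells that the spleen normally holds, lymphocytes among them. MiRNAs are short RNAs cut from a folded precursor, the hairpin, and they lower the output of the mRNAs they pair with. Many are largely made in 1 cell lineage, such as mir-126 in endothelium and mir-150 in mature lymphocytes, so that a tissue profile reads both its makeup and the state of its cells.

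Mature counts, the reads lying on the annotated mature miRNA of a hairpin, came to 3040736 to 6562849 per hemangiosarcoma library and 3768867 to 6073162 per nodular hyperplasia library. Between 232 and 250 miRNAs were detected in each of these 10 libraries. Levels are in CPM, the counts per 1000000 of a TMM-scaled library total. TMM scaling assumes that most miRNAs do not differ, and its factors overlapped between the groups (0.76 to 1.58 and 0.78 to 1.62). Mir-21 alone took 10.98% to 40.6% of the mature counts in hemangiosarcoma and 21.5% to 31.8% in nodular hyperplasia. No library was a copy of another of its own group, since the closest pair within a group differed with a chi-square per degree of freedom of 746. Pairs across groups were not compared in this way.

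Endothelial mir-126, the neighbours mir-224 and mir-452, the pair mir-132 and mir-212, and mir-9, mir-92b, mir-504 and mir-10b were overexpressed in hemangiosarcoma compared to nodular hyperplasia. Mir-150, mir-155 and mir-142 of lymphocytes and other white blood cells, mir-146b, mir-29a and the epithelial pair mir-200c and mir-141 were underexpressed. Of 250 miRNAs tested, 46 (18.4%) passed an adjusted p of 0.05 in edgeR's quasi-likelihood test, 26 (10.4%) higher in hemangiosarcoma and 20 (8%) lower. These 46 are called overexpressed or underexpressed in what follows. The median log2 fold change over all 250 miRNAs was -0.07, and 87 miRNAs had an unadjusted p under 0.05. The median standard error (SE) of a log2 fold change was 0.45, and the smallest difference called was -0.66 ± 0.22 (SE, mir-340). Of the 77 miRNAs with a mean under 10 CPM, 9 passed, and of the 60 with a mean over 1000 CPM, 13 did. The median SE of these classes was 0.81 and 0.30.

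**Figure D1:**
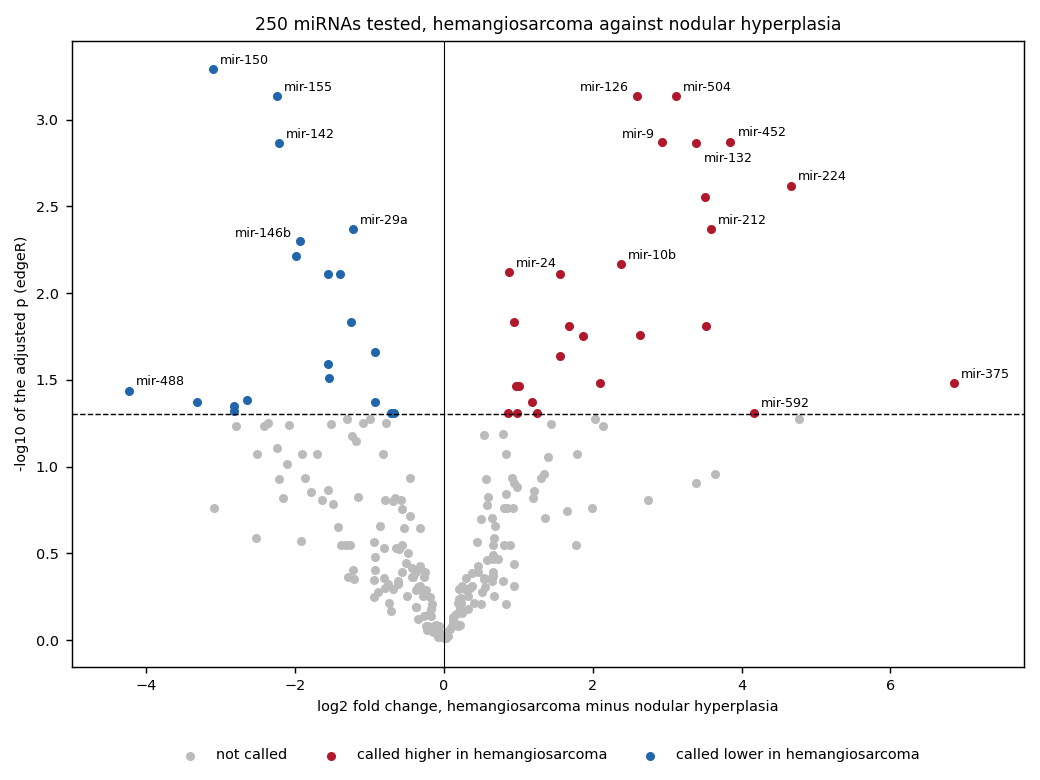
Each point is 1 of 250 miRNAs, with its log2 fold change of hemangiosarcoma over nodular hyperplasia on the x axis and -log10 of its edgeR adjusted p on the y axis. The dashed line is an adjusted p of 0.05. The 26 miRNAs called higher reach 6.85 (mir-375), and mir-150 has the lowest adjusted p, at -3.10 on the log2 scale.

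The groups did not overlap in 20 of the 250 miRNAs (8%), 9 (3.6%) with every tumor above every nodule and 11 (4.4%) with every tumor below. Of these, 16 were also called, 7 higher (mir-224, mir-504, mir-126, mir-139, mir-204, mir-365 and mir-24) and 9 lower (mir-340, mir-186, mir-191, mir-342, mir-200c, mir-141, mir-142, mir-155 and mir-150). The other 30 called miRNAs overlapped in at least 1 library. Hemangiosarcoma replicate 2 lay above all nodular hyperplasia libraries in 15 of the 26 miRNAs called higher, and the other 4 tumors did so in 19 to 24. In the 20 miRNAs called lower, replicate 5 lay below all nodules in 11, replicate 2 in 12 and the other 3 tumors in 14 or 15. Nodular hyperplasia replicates 3 and 4 lay above all tumors in 13 and 12 of the 20 miRNAs called lower, and the other 3 in 19 or 20. The same 2 nodules lay below all tumors in 14 of the 26 called higher, and the other 3 in 18. The called miRNAs were chosen for differing between these same libraries, so high counts are built in. They only set the libraries of a group side by side, and no such counts were made over all 250 miRNAs.

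**Figure D2:**
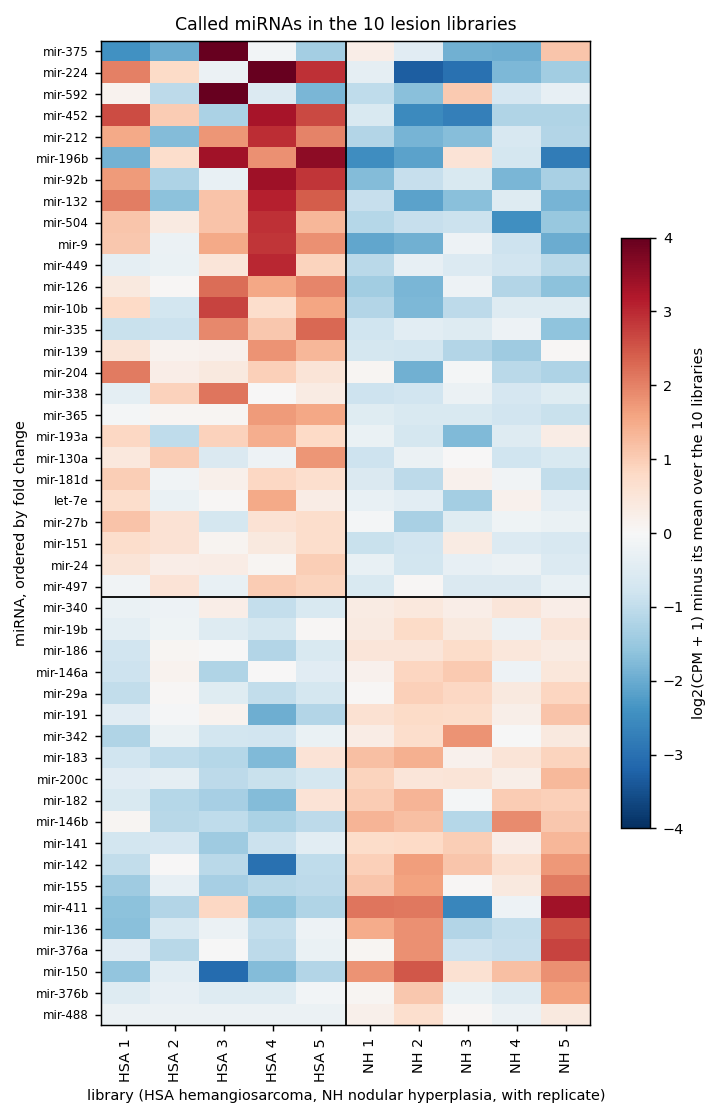
Rows are the 46 called miRNAs in the order of their fold change, columns the 5 hemangiosarcoma (HSA) and 5 nodular hyperplasia (NH) libraries, and colors log2(CPM + 1) minus the mean of the row, with colors ending at 4 in either direction. Mir-375 and mir-592 are raised in the single library of hemangiosarcoma replicate 3, and mir-136, mir-376a and mir-376b of the Dlk1-Dio3 cluster are highest in nodular hyperplasia replicates 2 and 5.

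In a principal component analysis of log2(CPM + 1) over the 10 libraries, the first component held 36.4% of the variance. The hemangiosarcoma libraries lay at 7.50, 2.37, 3.00, 14.2 and 10.3 on it, and the nodular hyperplasia libraries at -8.52, -12.6, -0.36, -3.81 and -12.1. Mir-224, mir-452, mir-196b and mir-132 weighed most toward the tumors, and mir-150, mir-411, mir-379 and mir-142 toward the nodules. The second component, with 24.1% of the variance, set hemangiosarcoma replicate 3 at 18.5 apart from the other 9 libraries at -9.11 to 4.48, with mir-375 weighing most. Hemangiosarcoma replicate 3 was nearest to nodular hyperplasia replicate 4, and nodular hyperplasia replicate 3 was nearest to hemangiosarcoma replicate 2, whereas the other 8 libraries were nearest to one of their own group. Among 173 miRNAs with a mean of at least 10 CPM, 119 had the larger SD of log2(CPM + 1) in hemangiosarcoma, with a median SD of 0.684 against 0.516.

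Mir-126, encoded within the endothelial gene EGFL7 and known to sustain VEGF signalling in vessels, was at 3791, 3006, 13777, 8519.7 and 11147 CPM in hemangiosarcoma replicates 1 to 5. It was at 1101, 824, 2536, 1289 and 937 CPM in nodular hyperplasia replicates 1 to 5, the order used throughout. Every tumor lay above every nodule, with replicates 3, 4 and 5 of hemangiosarcoma well above the other 2. The difference was 6.02-fold (log2 fold change 2.59 ± 0.41 SE, n = 5 and 5, edgeR adjusted p = 0.000735). Its call held whichever library was left out and under each of the 10 other settings tried.

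Of the 9 miRNAs listed as enriched in or acting on endothelium, 4 were overexpressed (mir-126, mir-130a, mir-10b and mir-24), none was underexpressed, and their median log2 fold change was 0.88. Over all 250 miRNAs 10.4% were called higher and 8% lower, and the median was -0.07. The summed level of the 9 listed miRNAs was 39061 to 135358 CPM in hemangiosarcoma, 18297 to 36496 CPM in nodular hyperplasia and 48158 to 160498 CPM in normal spleen. Most of this sum in the tumors and normal spleens was mir-10a and mir-10b, so it does not follow mir-126. Mir-126 was at 2161 to 2734 CPM in normal spleen, below every tumor. Mir-10b, which lies in a HOX gene cluster and acts on vessel sprouting, was at 20374, 7003, 76795, 19053 and 35097 CPM in hemangiosarcoma and 5195, 3337, 5615, 8119 and 8262 CPM in nodular hyperplasia. A single tumor, replicate 2, fell within the range of the nodules. Its difference was 5.19-fold (log2 2.37 ± 0.54 SE, edgeR adjusted p = 0.00678). Mir-24 was raised 1.84-fold with no overlap (edgeR adjusted p = 0.00756), but its call ended when libraries were scaled to their totals (adjusted p = 0.0664) or left unscaled (0.106). Mir-130a, at 240.3, 365, 119, 157 and 614 CPM in the tumors and 102, 153, 184, 104 and 118 CPM in the nodules, passed narrowly (log2 1.18 ± 0.38, adjusted p = 0.0424) and lost its call in 11 of the 15 fits that left out a library, with log2 fold changes of 0.84 to 1.25 in them, and in 5 of 10 other settings. Mir-221, a listed miRNA that restrains KIT in endothelium, was not called (log2 0.33 ± 0.39).

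Of 5 listed miRNAs of the HOX clusters 4 were tested and 2 were overexpressed, mir-10b and mir-196b. Over all 250 miRNAs 10.4% were called higher, and nothing is read from a count of 4. Of these 2, mir-196b is known from blood stem cells and leukemias. Mir-196b was at 4.82, 33.7, 221, 76.1 and 255 CPM in hemangiosarcoma and 2.85, 3.93, 30.4, 12.1 and 2.09 CPM in nodular hyperplasia. Replicates 3 and 5 of hemangiosarcoma stood at 221 and 255 CPM, replicate 1 lay among the nodules, and nodular hyperplasia replicate 3 was the highest nodule. The difference was 11.5-fold (log2 3.53 ± 0.93 SE, edgeR adjusted p = 0.0154). Mir-10a, also of a HOX cluster, differed by 0.91 ± 0.40 on the log2 scale and was not called (adjusted p = 0.116).

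The largest differences held by several tumors were those of mir-224 and mir-452, which are neighbours within the gene of the GABA receptor subunit GABRE. Mir-224, raised in many carcinomas, was at 56.2, 23.3, 10.96, 287 and 106 CPM in hemangiosarcoma and 10.1, 0.437, 0.806, 3.10 and 4.45 CPM in nodular hyperplasia. The groups did not overlap, but hemangiosarcoma replicate 3 lay just above nodular hyperplasia replicate 1. The difference was 25.4-fold (log2 4.66 ± 0.91 SE, edgeR adjusted p = 0.0024). Mir-452 was at 193, 64.2, 12.2, 312 and 199.7 CPM and 19.9, 4.51, 3.83, 13.04 and 12.8 CPM, with hemangiosarcoma replicate 3 again lowest and here within the nodules (14.4-fold, log2 3.85 ± 0.69, adjusted p = 0.00134). Both were highest in hemangiosarcoma replicate 4.

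Mir-132 and mir-212 are cut from 1 transcript that the factor CREB induces, and mir-132 is known to act in growing endothelium. Mir-132 was at 255, 19.05, 135, 537 and 330.5 CPM in hemangiosarcoma and 31.9, 12.96, 18.5, 42.5 and 15.96 CPM in nodular hyperplasia. The exception was hemangiosarcoma replicate 2, which was at the level of the nodules, while the other 4 tumors were above them all. Mir-212 was rarer, at 21.3, 1.33, 25.8, 60.1 and 29.9 CPM and 2.49, 1.17, 1.41, 4.04 and 2.48 CPM, with the same tumor low. Mir-132 differed 10.5-fold (log2 3.39 ± 0.62 SE, edgeR adjusted p = 0.00137) and mir-212 12.0-fold (log2 3.59 ± 0.76, adjusted p = 0.00429).

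Mir-9, best known from the nervous system, was at 584, 234, 794, 2024 and 983 CPM in hemangiosarcoma and 65.1, 72.2, 243, 154 and 68.9 CPM in nodular hyperplasia. Only hemangiosarcoma replicate 2 and nodular hyperplasia replicate 3 crossed, at 234 and 243 CPM. The difference was 7.65-fold (log2 2.94 ± 0.52 SE, edgeR adjusted p = 0.00134). Mir-9 was the 1 of 7 listed neural miRNAs that was called, beside 18.4% called over all 250 miRNAs, so nothing is read from this count.

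Mir-92b shares its seed with mir-92a of the growth-promoting mir-17-92 cluster. It was at 60.5, 6.94, 14.4, 195 and 135 CPM in hemangiosarcoma and 4.63, 8.88, 11.3, 4.35 and 6.67 CPM in nodular hyperplasia. Replicates 1, 4 and 5 of hemangiosarcoma were far above the nodules, replicate 3 was just above them and replicate 2 among them. The difference was 11.4-fold (log2 3.52 ± 0.70 SE, edgeR adjusted p = 0.00279). A list of 14 miRNAs held mir-92b, which lies outside these clusters, with members of the mir-17-92 cluster and its paralogous clusters. Of the 14, mir-92b was overexpressed and mir-19b underexpressed (log2 -0.71 ± 0.24, a call lost in 13 of the 15 fits that left out a library, at -0.72 to -0.51). No listed cluster member was thus called higher, and the median log2 fold change of the list was -0.08. Over all 250 miRNAs 18.4% were called and the median was -0.07.

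Mir-504, within the gene FGF13 and known to target p53, was at 32.3, 19.05, 33.4, 117 and 38.5 CPM in hemangiosarcoma and 6.05, 7.28, 7.66, 1.86 and 4.45 CPM in nodular hyperplasia. The groups were wide apart, with the lowest tumor at 19.05 CPM and the highest nodule at 7.66 CPM. The difference was 8.70-fold (log2 3.12 ± 0.51 SE, edgeR adjusted p = 0.000735).

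**Figure D3:**
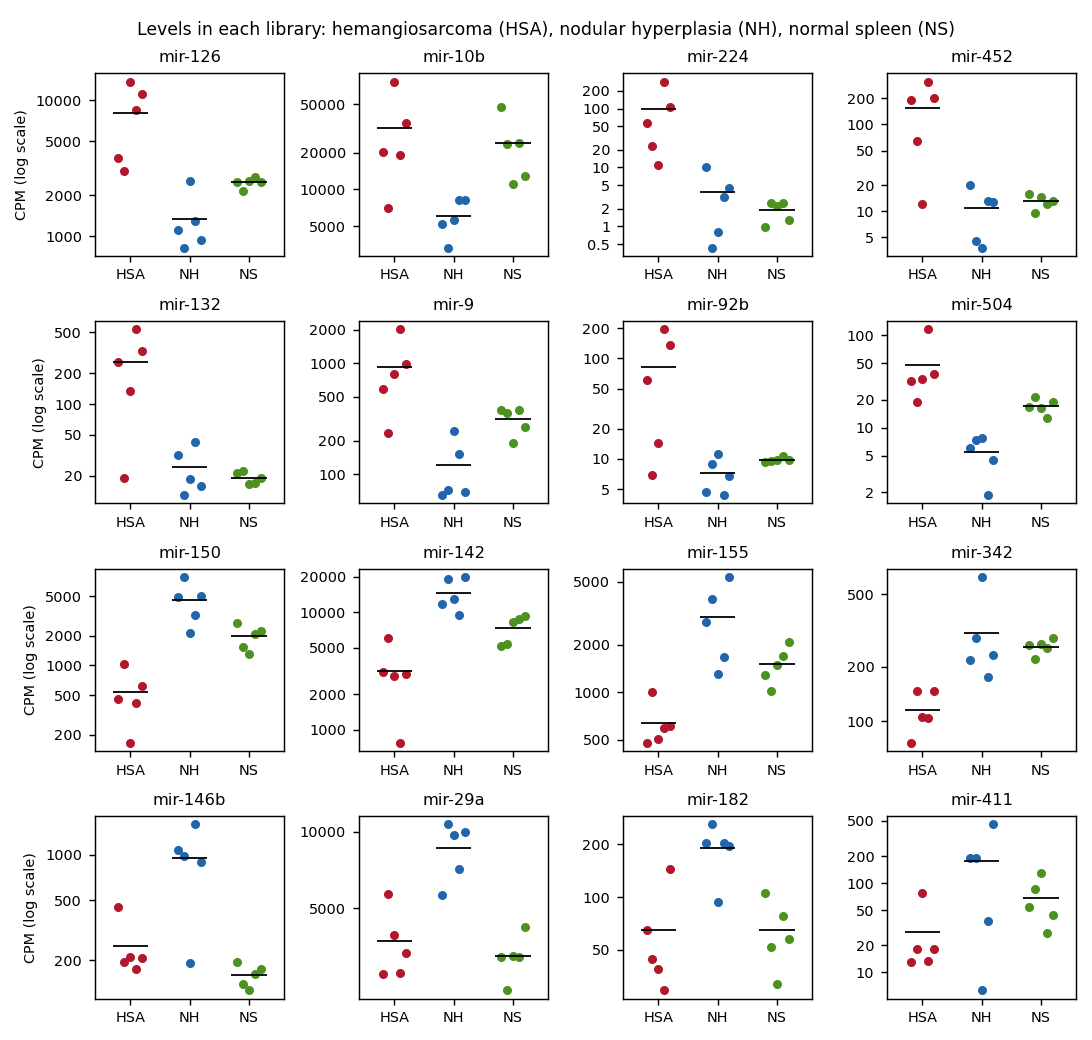
Each point is 1 library, with its level in CPM on a log axis for 5 hemangiosarcoma (HSA), 5 nodular hyperplasia (NH) and 5 normal spleen (NS) libraries, and lines mark the group means. Mir-126, mir-224, mir-504, mir-150, mir-142, mir-155 and mir-342 separate both lesion groups with no overlap, and for mir-504 the normal spleens lie above all nodules, at 12.7 to 21.6 CPM.

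Mir-449, a relative of the p53-responsive mir-34 by its seed, was at 2.41, 2.66, 5.11, 34.2 and 7.14 CPM in hemangiosarcoma and 1.07, 2.48, 2.02, 1.55 and 1.05 CPM in nodular hyperplasia. Its call (log2 2.64 ± 0.71 SE, edgeR adjusted p = 0.0175) rested on hemangiosarcoma replicate 4, since without that library it did not pass, at 1.39 on the log2 scale, and it was called in 6 of 10 other settings. Mir-139 and mir-204 were overexpressed with no overlap by 3.65 and 3.22-fold. Mir-139, within PDE2A, lost its call without hemangiosarcoma replicate 4 (log2 1.51), with library totals (edgeR adjusted p = 0.0506) and with unscaled counts (0.073), and it was not among the miRNAs tested at 10 CPM in 5 libraries. Mir-204, within TRPM3, lost its call without hemangiosarcoma replicate 1 (log2 1.24). Mir-365 was raised 2.95-fold with no overlap (edgeR adjusted p = 0.00779), with replicates 4 and 5 of hemangiosarcoma at 348 and 315 CPM and the nodules at 56.8 to 76.9 CPM. With library totals its adjusted p was 0.0506.

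The other overexpressed miRNAs were mir-335 (log2 2.10 ± 0.63), mir-338 (1.56 ± 0.44), mir-193a (1.25 ± 0.42), mir-181d (1.01 ± 0.31), let-7e (0.98 ± 0.33), mir-27b (0.97 ± 0.30), mir-151 (0.95 ± 0.24) and mir-497 (0.87 ± 0.29). Among these 8, the call of mir-151 held whichever library was left out but ended with library totals (edgeR adjusted p = 0.0881) or unscaled counts (0.0918), whereas that of mir-338 ended without nodular hyperplasia replicate 2 (log2 1.51), with library totals (adjusted p = 0.0634), unscaled counts (0.0715), the 10 lesion libraries alone (0.0779), the replicate block (0.0623) and limma voom. The other 6 lost theirs in 4 to 11 of the 15 fits that left out a library, with log2 fold changes of 0.61 to 2.18, and were called in 4 to 6 of 10 other settings of scaling, tool, filter, libraries and reads. Mir-335 lies within MEST, a gene imprinted in mammals, and its high level came from hemangiosarcoma replicates 3, 4 and 5, at 31.4, 17.3 and 41.1 CPM against 1.83 to 6.52 CPM in the nodules.

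Mir-375, the chief miRNA of pancreatic islets, and mir-592 were called from a single tumor. Mir-375 was at 0.402, 0.886, 3486, 6.05 and 1.92 CPM in hemangiosarcoma and 8.01, 4.51, 1.01, 0.931 and 15.2 CPM in nodular hyperplasia, and mir-592 at 5.62, 1.92, 365, 3.13 and 0.696 CPM and 1.96, 0.874, 11.5, 2.79 and 3.79 CPM. In both, hemangiosarcoma replicate 3 stood far above every other library and the other 4 tumors were within or below the range of the nodules. Without that library the log2 fold changes turned to -1.20 for mir-375 and -0.42 for mir-592, neither of them called. Mir-375 also lost its call without nodular hyperplasia replicate 1, 2 or 4, and mir-592 in 10 of the 15 fits in all. The same tumor held mir-216b at 21.4 CPM and mir-217 at 5.11 CPM, both known from exocrine pancreas, against at most 0.402 CPM in any other lesion library. Neither was called. Of 5 listed pancreatic miRNAs, mir-375 alone passed, beside 18.4% called over all 250 miRNAs, so nothing is read from this count. The summed level of the 5 listed miRNAs was 1622 to 9034 CPM in hemangiosarcoma and 2330.3 to 4045 CPM in nodular hyperplasia. Nearly all of it was mir-7, which is made in many tissues and was not called, except in hemangiosarcoma replicate 3, where mir-7 was at 5516 CPM beside mir-375 at 3486 CPM. Mir-217 was at 0 in the other 4 tumors. The part of pancreatic tissue in these values was not tested.

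Turning to the underexpressed miRNAs, mir-150, which is abundant in mature B and T lymphocytes and restrains MYB, had the lowest adjusted p of all 250. It was at 461, 1029, 165, 421 and 615 CPM in hemangiosarcoma and 4871, 7840.1, 2140.2, 3226 and 4976 CPM in nodular hyperplasia. The highest tumor lay below the lowest nodule, and hemangiosarcoma replicate 3 was lowest. The difference was 8.57-fold (log2 -3.10 ± 0.44 SE, n = 5 and 5, edgeR adjusted p = 0.000511).

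Mir-142, made in all blood cell lineages, was at 3079, 6073, 2859, 772 and 2969.6 CPM in hemangiosarcoma and 11645, 19135, 13005, 9500.1 and 20002 CPM in nodular hyperplasia. Mir-155, induced in activated lymphocytes and macrophages, was at 477, 1001, 504, 589 and 609.6 CPM and 2765, 3913, 1311, 1657 and 5379 CPM. Neither overlapped between groups, and hemangiosarcoma replicate 2 was the highest tumor for both. Mir-142 was 4.65-fold lower in the tumors (log2 -2.22 ± 0.41, edgeR adjusted p = 0.00137) and mir-155 4.72-fold lower (log2 -2.24 ± 0.37, adjusted p = 0.000735).

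Mir-342, within EVL and enriched in lymphocytes, was at 76.3, 148, 106, 104 and 147 CPM in hemangiosarcoma and 217, 289, 622, 176 and 231 CPM in nodular hyperplasia. Again there was no overlap, and nodular hyperplasia replicate 3 was the highest (log2 -1.40 ± 0.33, edgeR adjusted p = 0.00779). Its call ended with library totals (adjusted p = 0.0551) and with the 10 lesion libraries alone (0.059). Together, 4 of the 7 listed lymphoid miRNAs were underexpressed and none was overexpressed, with a median log2 fold change of -1.40, beside 8% lower, 10.4% higher and a median of -0.07 over all 250 miRNAs. Their summed level had a range of 7419 to 17825 CPM in hemangiosarcoma, 20899.6 to 38407 CPM in nodular hyperplasia and 19995 to 29356 CPM in normal spleen. The 3 listed members that were not called all had positive log2 fold changes, so the median is the value of mir-342. The highest of these 3 was mir-181a, which acts in lymphocyte development (log2 0.23 ± 0.29). The part of the cell makeup of the tissue in these differences was not tested.

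Mir-146b and mir-146a are brakes on NF-kB signalling. Mir-146b was at 454, 196, 210.2, 175 and 207 CPM in hemangiosarcoma and 1086, 986, 191, 1594 and 903 CPM in nodular hyperplasia. Nodular hyperplasia replicate 3 lay among the tumors, and the other 4 nodules were above them all. The difference was 3.83-fold (log2 -1.94 ± 0.42 SE, edgeR adjusted p = 0.00499). Mir-146a was at 1174, 2262, 895, 2085 and 1504 CPM and 2354, 3748, 4309.6, 1791 and 2809 CPM, with nodular hyperplasia replicate 4 below hemangiosarcoma replicates 2 and 4. Its difference was smaller (log2 -0.92 ± 0.30, edgeR adjusted p = 0.0424), and its call ended in 11 of the 15 fits that left out a library, with log2 fold changes of -0.95 to -0.62. Of 4 listed miRNAs of myeloid cells and inflammation these 2 were called, beside 8% called lower over all 250 miRNAs. Nothing is read from a count of 4. The myeloid mir-223 gave no call (log2 -0.38 ± 0.58), and its sign turned to 0.49 without nodular hyperplasia replicate 3, which held 552 CPM against 54.3 to 298 CPM in the other nodules.

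Mir-29a, known to target collagens, was at 2757, 5690.5, 3933, 2793 and 3338 CPM in hemangiosarcoma and 5658, 10696, 9740.4, 7117 and 9975 CPM in nodular hyperplasia. Hemangiosarcoma replicate 2 and nodular hyperplasia replicate 1 met at nearly the same level, and the other libraries were apart. The difference was 2.33-fold (log2 -1.22 ± 0.26 SE, edgeR adjusted p = 0.00429), and the adjusted p was 0.0506 with library totals. Its family members mir-29b and mir-29c had log2 fold changes of -1.30 and -1.08 with adjusted p of 0.0534 and 0.0558, just outside the threshold.

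Mir-191 is made in most tissues and is sometimes used as a reference miRNA. It was at 3356, 4485, 5080.3, 1197 and 2071 CPM in hemangiosarcoma and 7102, 7933, 7790.4, 5408 and 10237 CPM in nodular hyperplasia, with no overlap (log2 -1.25 ± 0.32, edgeR adjusted p = 0.0147). The call ended when the fit held the 10 lesion libraries alone (adjusted p = 0.0757). Mir-186 and mir-340 were likewise lower in every tumor, by 1.89 and 1.58-fold. The call of mir-186 ended without hemangiosarcoma replicate 1 or 5 (log2 -0.85 to -0.77), and that of mir-340 in 14 of the 15 fits that left out a library (-0.69 to -0.49).

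The mir-200 family keeps epithelial cells from turning mesenchymal, and in the spleen it was rare. Mir-200c was at 6.03, 6.497, 3.65, 4.17 and 4.88 CPM in hemangiosarcoma and 16.7, 12.4, 12.7, 10.2 and 22.2 CPM in nodular hyperplasia. Its cluster partner mir-141 was at 2.61, 2.81, 1.22, 2.29 and 3.48 CPM and 8.90, 9.47, 10.9, 6.21 and 14.1 CPM. Both were lower in every tumor than in any nodule, by 2.93 and 3.95-fold (edgeR adjusted p = 0.00779 and 0.00608), and the first call ended with library totals (adjusted p = 0.0506). Of 6 listed epithelial miRNAs these 2 were called, and the median log2 fold change was -1.39. Over all 250 miRNAs 8% were called lower and the median was -0.07, and nothing is read from a count of 6. The summed level of these 6 was 9.26 to 32.3 CPM in hemangiosarcoma and 37.6 to 72.9 CPM in nodular hyperplasia. Mir-203, a miRNA of stratified epithelium, was not called in edgeR (log2 -1.23 ± 0.46, adjusted p = 0.0663), but passed in DESeq2 (adjusted p = 0.0278) and limma voom (0.0345), and in edgeR without hemangiosarcoma replicate 2 (log2 -1.66, adjusted p = 0.0165). It was at 16.5, 21.4, 4.38, 3.13 and 7.49 CPM in the tumors and 29.5, 16.3, 34.1, 21.1 and 23.4 CPM in the nodules, so that hemangiosarcoma replicates 1 and 2 overlapped with the nodules.

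Mir-183, mir-96 and mir-182 are cut from 1 transcript known from sensory cells and from activated lymphocytes. Mir-182 was at 64.7, 44.6, 39.2, 29.4 and 145 CPM in hemangiosarcoma and 203, 259, 93.7, 202 and 195 CPM in nodular hyperplasia, and mir-183 at 26.7, 23.2, 20.9, 13.1 and 69.6 CPM and 109.6, 129, 54.2, 68.3 and 88.1 CPM. For both, hemangiosarcoma replicate 5 was the highest tumor and nodular hyperplasia replicate 3 the lowest nodule, and these 2 libraries crossed, with nodular hyperplasia replicate 4 also just below that tumor for mir-183. Mir-182 was 2.95-fold and mir-183 2.92-fold lower in the tumors (edgeR adjusted p = 0.0257 and 0.0309). Their calls ended in 5 and 7 of the 15 fits that left out a library, with log2 fold changes of -1.56 to -1.26 and -1.50 to -1.26. Mir-96 was not called (log2 -1.16 ± 0.56).

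The imprinted Dlk1-Dio3 cluster encodes a long series of miRNAs that are transcribed from the maternal chromosome. Of the 46 human members listed by name, 28 were tested, and 4 of these were underexpressed (mir-411, mir-136, mir-376a and mir-376b) and none overexpressed. Over all 250 miRNAs 8% were called lower, so with 4 of 28 the number of calls says little of the cluster. The median log2 fold change of the 28 was -1.82, beside -0.07 over all. Summed over these 28, the level was 120.7, 109.7, 520.0, 97.4 and 126 CPM in hemangiosarcoma and 810.0, 773, 33.0, 202 and 2297 CPM in nodular hyperplasia. Nodular hyperplasia replicates 1, 2 and 5 lay above every tumor in 21, 20 and 26 of the 28, while replicates 3 and 4 did so in 0 and 1. How often each nodule lay above every tumor over all 250 miRNAs was not counted. These counts therefore only set the nodules side by side, and nothing is read from them about the cluster. In the sum, nodular hyperplasia replicate 3 lay below every tumor, and hemangiosarcoma replicate 3 stood above the other tumors and above replicates 3 and 4 of the nodules.

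Mir-411, the most abundant called member, was at 13.1, 18.5, 78.2, 13.6 and 18.3 CPM in hemangiosarcoma and 193, 191, 6.25, 37.6 and 457 CPM in nodular hyperplasia. Hemangiosarcoma replicate 3 lay above nodular hyperplasia replicates 3 and 4. Its adjusted p was 0.041 in edgeR (log2 -2.65 ± 0.84), and its call ended in 10 of the 15 fits that left out a library, with log2 fold changes of -2.65 to -1.92. Mir-376b rested on few reads, with 0, 1, 0, 0 and 2 counts in the tumors and 3, 14, 1, 0 and 26 in the nodules. Its call ended in 11 of the 15 fits that left out a library (log2 -3.44 to -2.53), as did that of mir-376a (-2.90 to -1.84), and the call of mir-136 ended in 12 (-2.99 to -2.23). Mir-127 and mir-379 of the same cluster had log2 fold changes of -2.08 ± 0.75 and -2.42 ± 0.88 with adjusted p of 0.0573 and 0.0586. Mir-488, outside the cluster, was called at 0 counts in all 5 tumors and 2, 6, 1, 0 and 4 counts in the nodules, and lost its call in 8 of the 15 fits that left out a library.

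The 5 miRNAs with the highest mean over the 10 lesion libraries together were not called. Within hemangiosarcoma alone the fourth was mir-10b, which was overexpressed, at a mean of 31664 CPM. Mir-21, raised in many tumors and in inflammation, was at 315348, 82737, 475164, 150592 and 215342 CPM in hemangiosarcoma and 206569.7, 132343, 193816, 410131 and 173533 CPM in nodular hyperplasia. The nodules lay within the range of the tumors (log2 0.15 ± 0.40, 95% interval -0.69 to 0.99). Mir-143 of smooth muscle (log2 0.67 ± 0.48), mir-148a (-0.94 ± 0.59), the red cell miRNA mir-451 (-0.64 ± 0.43) and mir-26a (-0.24 ± 0.26) also overlapped. The 95% intervals were wide for mir-148a (-2.18 to 0.31) and narrower for mir-26a (-0.79 to 0.32), so equal levels were not shown.

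Over all 250 miRNAs 18.4% were called, so the remaining lists, of 2 to 7 miRNAs each, would hold few calls or none at that share, and nothing is read from their counts. None was called among 2 erythroid miRNAs, 7 of striated muscle, 3 of liver and gut, 5 of the mir-424 cluster, 5 of the mir-30 family and 4 of the mir-125 and mir-99 families. Smooth muscle and stroma gave 1 of 6 (mir-497), the let-7 family 1 of 7, the mir-34 family 1 of 4 (mir-449), the mir-15 family 1 of 5 (mir-497 again) and the mir-181 family 1 of 4. Mir-503, a member of the mir-424 cluster that restrains endothelial growth, came near, at 25.5, 11.2, 77.9, 34.0 and 27.0 CPM in hemangiosarcoma and 9.96, 2.91, 15.9, 15.2 and 20.4 CPM in nodular hyperplasia (log2 1.45 ± 0.52, adjusted p = 0.0571). Muscle mir-133a was similar in this (log2 2.04 ± 0.71, adjusted p = 0.0532), and the hypoxia miRNA mir-210 was spread widely in both groups (log2 0.66 ± 0.53, adjusted p = 0.404).

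By the positions of a RefSeq gene table of another dog assembly, which named 308 of the 313 hairpins, 12 of the 46 called miRNAs had another called miRNA within 10 kb. These were 6 pairs, each of which moved in 1 direction: mir-224 with mir-452, mir-132 with mir-212 and mir-27b with mir-24 rose, and mir-183 with mir-182, mir-200c with mir-141 and mir-376a with mir-376b fell. Mir-23b, in the same cluster as mir-27b, was not called (log2 0.60 ± 0.29), and neither was mir-23a of the paralogous cluster (0.19 ± 0.26), which also holds a copy of mir-24 that cannot be told from the first. A hairpin of 18 of the 46 lay within a protein-coding gene, among them EGFL7 for mir-126, GABRE for mir-224 and mir-452, FGF13 for mir-504, MEST for mir-335, PTK2 for mir-151, EVL for mir-342 and RTL1 for mir-136. The mRNAs of these genes were not measured. Other called miRNAs had a tested neighbour that was not called, such as mir-497 with mir-195 and mir-181d with mir-181c. How many of all tested miRNAs have a neighbour within 10 kb or lie within a gene was not counted. Nothing is therefore read from the numbers of pairs and host genes.

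Reads that lie on a hairpin but off its annotated mature miRNA, such as reads of the other arm, gave a second readout from the same libraries. Of the 46 called miRNAs, 44 had enough such reads to be tested. All 44 had the same sign as from their mature reads, and 30 of them were called, 21 higher and 9 lower. Over all hairpins, 45 of 237 (19%) were called from these reads, 26 (11%) higher and 19 (8.02%) lower. How often the signs agreed over all 237 was not counted, so nothing is read from the 44 agreeing signs. Both kinds of reads come from the same RNA, so this is no independent set of dogs. Mir-126 is the main case, since 92.3% of its hairpin reads lay off the annotated mature miRNA, and these reads gave a log2 fold change of 2.79 (edgeR adjusted p = 0.00166) beside 2.59 from the mature reads. By contrast, mir-504, mir-146b, mir-200c and mir-141 were not called from these reads, at log2 fold changes of 1.75, -0.90, -0.72 and -0.61.

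**Figure D4:**
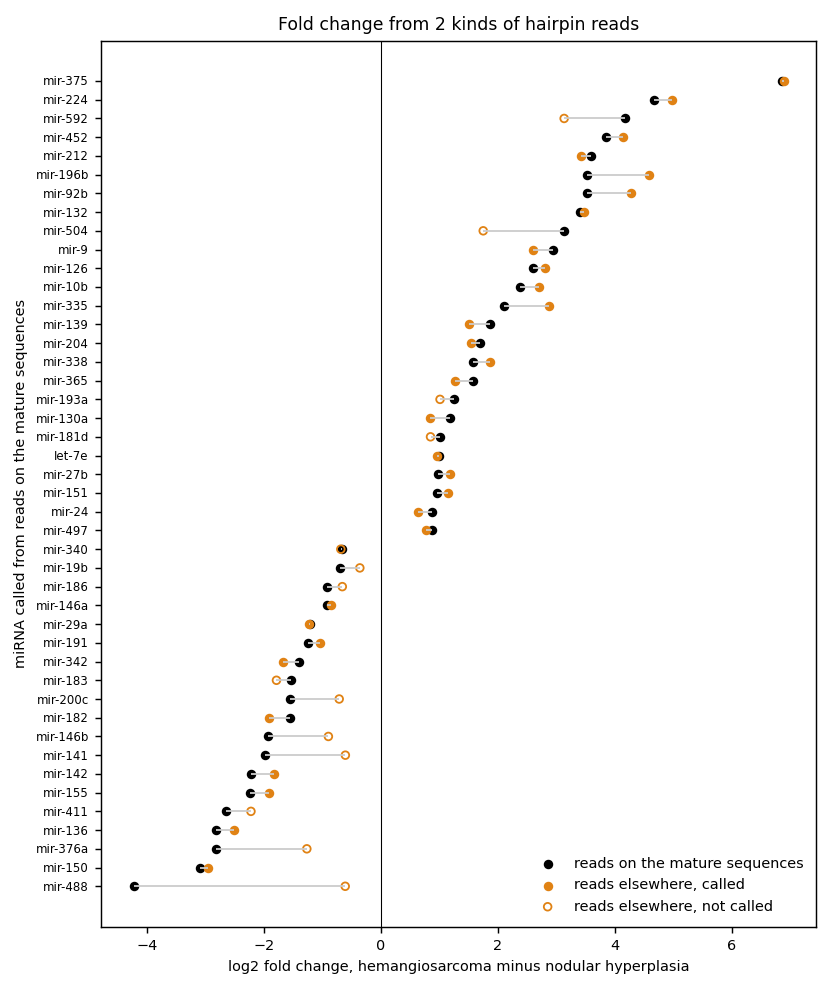
Each line is 1 of the 44 called miRNAs testable from both kinds of reads, with the log2 fold change of hemangiosarcoma over nodular hyperplasia on the x axis from reads on the mature sequences (black) and from reads elsewhere on the hairpin (orange, filled where called). Every pair lies on 1 side of 0, and 30 of the orange points are filled.

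Reads off the mature miRNA made up 7.86%, 9.30%, 17.2%, 22.8% and 16.7% of hairpin reads in hemangiosarcoma and 6.44%, 9.05%, 10.4%, 5.37% and 7.69% in nodular hyperplasia. The means were 14.8% ± 6.17 and 7.78% ± 1.99 (SD, n = 5 each), a difference of 6.99 percentage points (exact permutation test over all orderings of the 10 libraries, two-sided, p = 0.0476, where the smallest possible p is 0.00794). Mir-126 held 35.4% to 78.4% of these reads in hemangiosarcoma and 12.7% to 25.7% in nodular hyperplasia. With mir-126 left out, the share was 4.20% to 6.24% against 4.09% to 8.004%, a difference of -0.84 points (exact permutation p = 0.349). The p also rose to between 0.0635 and 0.0952 without hemangiosarcoma replicate 3, 4 or 5 or without nodular hyperplasia replicate 1, 2, 4 or 5, where the differences were 4.98 to 7.31 points.

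Each lesion was also set against the 5 normal spleens. These contrasts share their libraries with the one above, so they place the levels and add no support. In edgeR 56 of 250 miRNAs (22.4%) differed between hemangiosarcoma and normal spleen, and 31 (12.4%) between nodular hyperplasia and normal spleen. Mir-224 was at 0.990, 2.50, 2.20, 2.46 and 1.30 CPM and mir-132 at 21.1, 22.1, 16.5, 17.0 and 18.9 CPM in normal spleen replicates 1 to 5, close to the nodules. The log2 fold changes from normal spleen were 5.64 in hemangiosarcoma and 0.98 in nodular hyperplasia for mir-224, and 3.74 and 0.35 for mir-132. For mir-10b, at 47599, 23688, 11017, 24236 and 12938 CPM in normal spleen, they were 0.41 (edgeR adjusted p = 0.616) and -1.97 (0.0254), and for mir-27b 0.02 (0.998) and -0.96 (0.0436). For these 2 it was the nodules that lay away from normal spleen.

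The same was seen for several underexpressed miRNAs. Mir-146b had log2 fold changes of 0.64 in hemangiosarcoma (edgeR adjusted p = 0.307) and 2.57 in nodular hyperplasia (0.00282), and mir-29a of 0.19 (0.643) and 1.41 (0.00282). Mir-182 had -0.01 (0.998) and 1.55 (0.0342), and mir-141 -0.27 (0.717) and 1.72 (0.0182). Normal spleen lay between the lesions for mir-150, with -1.87 (0.00595) in hemangiosarcoma and 1.22 (0.0614) in nodular hyperplasia. It also lay between them for mir-126, with 1.69 (0.00761) and -0.90 (0.121). Since the normal spleens came from an archive, tissue source and lesion cannot be told apart in these contrasts.

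Mir-375 and mir-592 were the called miRNAs whose sign changed under any setting tried, both without hemangiosarcoma replicate 3. Of the 46 calls, 22 held whichever of the 15 libraries was left out, 13 higher and 9 lower. Another 10 settings changed the scaling, the tool, the filter, the libraries in the fit or the reads counted, or added the replicate number as a block. Through all of these and each left-out library 13 calls held, those of mir-224, mir-452, mir-196b, mir-92b, mir-132, mir-504, mir-9, mir-126, mir-10b, mir-146b, mir-142, mir-155 and mir-150. The total fell to 26 without nodular hyperplasia replicate 2 and to 29 without hemangiosarcoma replicate 1, and it reached 60 without nodular hyperplasia replicate 3. Library totals kept 21 of the 46 calls, and the fit of the 10 lesion libraries alone kept 22.

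**Figure D5:**
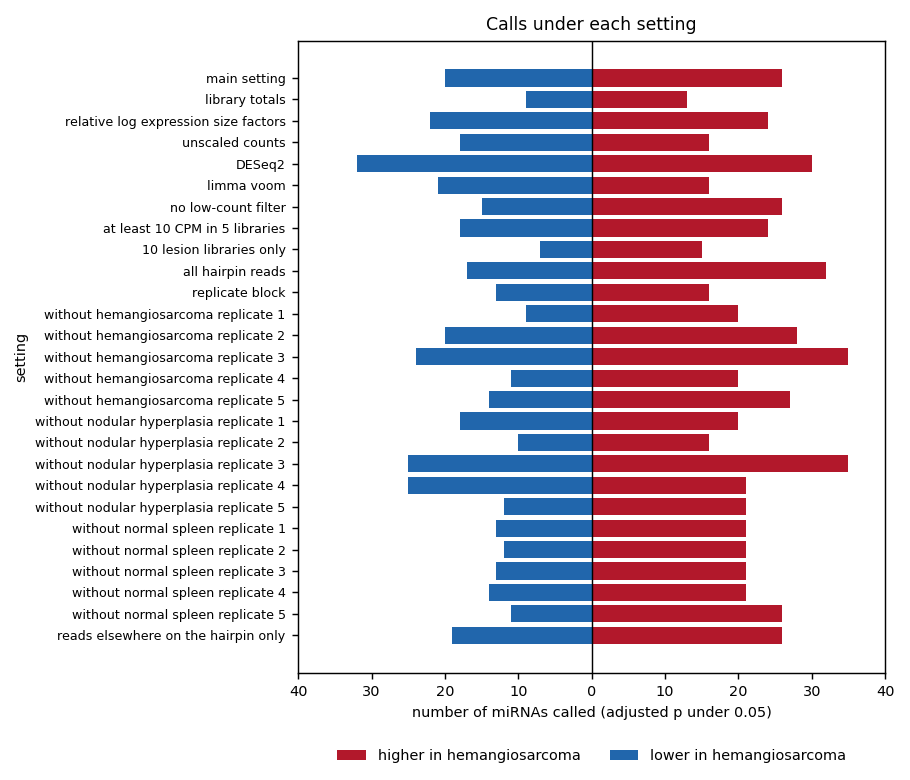
Bars show the number of miRNAs called under each setting, higher in hemangiosarcoma to the right and lower to the left, with the setting of the report on top. The total ranges from 22, with library totals or with the 10 lesion libraries alone, to 62 in DESeq2.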

How the data were processed

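The authors checked the reads with FastQC and used CLCbio to trim them and assign them to dog hairpins of miRBase release 20 (build canFam3 in the submitters' notes, tool versions not given in the sources used here). Raw counts of each hairpin were deposited without normalization, divided into reads on the 5' mature miRNA, on the 3' mature miRNA and elsewhere. Both mature counts were added, and 313 hairpins were merged by name into 277 miRNAs, since reads that copies share were divided evenly among them. Related miRNAs such as those of the mir-29 and let-7 families may share reads.

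The 250 miRNAs with at least 10 counts over 15 libraries were fitted in edgeR 4.0.16 (R 4.3.3, TMM, quasi-likelihood test, 3 group means), with Benjamini-Hochberg adjustment. SE was obtained from the log2 fold change and the F statistic. The edgeR step was tested on simulated data. Shares were tested by exact permutation. Alternatives used DESeq2 1.42.0 and limma 3.58.1. The miRNAs and lists were chosen with earlier results of these data known: every called miRNA may be named, with values in every library for up to 12 rises and 12 falls at a mean of at least 10 CPM. Counts carry no molecular identifiers, and each dog is 1 library. No miRNA sequence is shown. Python 3.11.15 with pandas 2.3.3, scipy 1.17.1 and matplotlib 3.10.9 made tables and figures.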

Additional observations from a re-analysis of the deposited data

Results flagged for a closer look

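Some libraries stood far from the other 4 of their group, by a gap over 0.71 of the range of log2(CPM + 1) (Dixon's 95% value for 5 samples). For normally distributed values chance alone gives about 1 such case in 20 groups, a rate that need not hold for miRNAs near 0. In all 146 groups were looked at, of which 12 were past this value. Hemangiosarcoma replicate 3 held 6 of them. In that library mir-375 was at 3486 CPM against 0.402 to 6.05 in the other tumors, mir-592 at 365 CPM against 0.696 to 5.62, and mir-411 at 78.2 CPM against 13.1 to 18.5. It also held mir-127 at 68.7 CPM against 17.3 to 24.0, mir-216b at 21.4 CPM against 0 to 0.402, and mir-217 at 5.11 CPM against 0. With the other tumors at 0, any count of mir-217 would have been past this value.

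Nodular hyperplasia replicate 3 held mir-151 at 1840.4 CPM against 791 to 998 in the other nodules, mir-182 at 93.7 CPM against 195 to 259, and mir-146b at 191 CPM against 903 to 1594. Nodular hyperplasia replicate 2 held mir-10a at 4329 CPM against 11607 to 13235. In hemangiosarcoma replicate 1 mir-146b was at 454 CPM against 175 to 210.2, and in hemangiosarcoma replicate 2 mir-193a was at 28.6 CPM against 102 to 164.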

How the results depend on the processing

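The 46 calls (26 higher, 20 lower) became 22 (13 and 9) with library totals, 22 (15 and 7) with the 10 lesion libraries alone, 34 (16 and 18) with unscaled counts, 62 (30 and 32) in DESeq2 and 37 (16 and 21) in limma voom. Relative log expression factors (46), no filter (41), 10 CPM in 5 libraries (42), all hairpin reads (49) and the reads elsewhere on the hairpin (45, added after the data were seen) stayed within 1.5 times. With 1 library left out the calls numbered 26 to 60, 16 to 35 of them higher and 9 to 25 lower. Taking the replicate number as a block gave 29 calls (16 and 13). The replicate numbers only follow the order of the samples and do not pair the dogs. The same-numbered deviations correlated at -0.24 to 0.10, values that alone could not decide on a pairing. With 1 library left out the log2 fold change of mir-375 was -1.20 to 7.55, of mir-592 -0.42 to 5.09, of mir-21 -0.084 to 0.49 and of mir-26a -0.49 to 0.035, each turning its sign without hemangiosarcoma replicate 3. Signs also turned for mir-21 in the reads elsewhere (-0.19), for mir-223 in limma voom (0.18) and for mir-223 without nodular hyperplasia replicate 3 (0.49, against as low as -0.63 without another library). The difference in the share of reads off the mature miRNA was 4.98 to 8.72 points with 1 library left out, 0.0269 as a median over hairpins (exact permutation p = 0.984) and -0.84 without mir-126. The causes were not tested. Few counts limit what can be said of mir-488, mir-376b and other miRNAs under 10 CPM.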
